A study of Mus musculus with 12 samples.

Results

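Protein kinase A (PKA) is the main kinase switched on by cyclic AMP, and the screen held 39 hairpins against 9 genes of its holoenzyme and of its inhibitor proteins, out of 3243 hairpins against 732 gene symbols in the whole count table. The members are every hairpin whose symbol in the table is PRKACA, PRKACB, PRKAR1A, PRKAR1B, PRKAR2A, PRKAR2B, PKIA, PKIB or PKIG, and no measured value was used to choose them. All 9 symbols matched a mouse protein-coding gene in the GRCm38.p6 gene table. A hairpin is named here by its gene, spelled in capitals as the table has it, and its number there. Hairpins of 1 gene share their target and are not replicates of each other.

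The cells were E14 mouse embryonic stem cells carrying a UHRF1-GFP transgene, whose fluorescence stands in for the level of UHRF1, the protein that recruits the maintenance DNA methyltransferase to newly copied DNA. All 12 libraries came from cells grown in Serum/LIF and transduced there with the TRC lentiviral mouse kinase library, whose hairpins are each meant to knock down 1 gene with no guarantee that they do. The Serum/LIF day 0 group was collected unsorted at the start of the screen, when the selected culture was divided, and the Serum/LIF day 7 group was collected unsorted after 7 days in the same medium. The 2i GFP- and 2i GFP+ groups were sorted on fluorescence from cells grown for 7 days in 2i, a serum-free medium with LIF, the MEK inhibitor PD0325901 and the GSK3 inhibitor CHIR99021, in which mouse embryonic stem cells enter the naïve state and lose UHRF1. Each group had 3 libraries, named A, B and C in the titles, and the screen asked which hairpins are over-represented in 2i cells that have kept the fluorescence. The transgene reports its own fusion protein, the promoter that drives it is not given in the sources used here, and hairpin counts hold no gene expression from which the cell state could be checked.

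In the absence of cyclic AMP, PKA is a tetramer in which a dimer of regulatory subunits holds a pair of catalytic subunits inactive. Cyclic AMP binds the regulatory subunits and releases the catalytic subunits, which then phosphorylate enzymes of energy metabolism, ion channels and the transcription factor CREB. PRKACA and PRKACB encode the catalytic subunits Cα and Cβ, PRKAR1A and PRKAR1B the type I regulatory subunits, and PRKAR2A and PRKAR2B the type II regulatory subunits, which anchoring proteins tie to particular places in the cell. PKIA, PKIB and PKIG encode small inhibitor proteins that bind the free catalytic subunit as pseudosubstrates and carry it out of the nucleus. Loss of a catalytic subunit would therefore lower PKA activity, whereas loss of a regulatory subunit or of an inhibitor would be expected to free it, so the members do not all act on the kinase in the same direction.

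Total counts were between 2435551 and 5466825 per library. A level is given as CPM, the count scaled to a common library size with TMM factors over all 12 libraries. Scaling matters for these values, because the TMM factors of the 2i GFP+ libraries were between 0.630 and 0.712 and those of the other 9 libraries between 1.08 and 1.21. The 2i GFP+ libraries also stood apart in how many hairpins they held. Of the 39 PKA hairpins, 94.0% ± 3.92 (SD, n = 3) had at least 1 count at Serum/LIF day 0, as did 98.3% ± 1.48 at day 7 and 99.1% ± 1.48 among 2i GFP- cells, against 59.0% ± 6.78 in 2i GFP+ cells. The same share over all hairpins was 88.9%, 93.1%, 86.6% and 54.6%. No PKA hairpin was at 0 in all 3 libraries of any other group, while 14 of the 39 (35.9%) were at 0 in all 3 GFP+ libraries, near the 33.0% of all hairpins. GFP+ replicate B was the shallowest library and the least like the others of its group: over all hairpins its Spearman correlation with A and C was 0.741 and 0.738, against 0.933 between A and C. Of the 25 PKA hairpins with any GFP+ count, 18 were lowest in replicate B and 5 were at 0 in B only, so each count of calls that uses the GFP+ group is given with and without it.

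Together the PKA hairpins held 1.38% ± 0.0521 (SD, n = 3) of all counts at Serum/LIF day 0, 1.55% ± 0.0137 at day 7, 1.64% ± 0.0763 in 2i GFP- cells and 2.88% ± 0.405 in 2i GFP+ cells. These are shares of the raw totals, without TMM scaling, and rises and falls of single hairpins can offset each other in such a sum. Leaving out 1 hairpin, PKIG 3270, removed the difference in the raw shares. Without it the GFP+ libraries A, B and C held 1.59%, 1.21% and 1.64%, so that A and C lie within the range of the other groups and B below it. With TMM scaling the GFP+ shares would be higher beside those of the other groups, whose factors are larger. By gene, the share of PKIG in GFP+ cells was 1.51% ± 0.264 against 0.240% ± 0.00691 in GFP- cells. PRKAR2A held 0.348% ± 0.138 against 0.151% ± 0.0183, and PRKAR2B, with no enriched hairpin, held 0.0864% ± 0.0635 against 0.369% ± 0.0103. The raw shares of PRKACA were 0.475% ± 0.0492 and 0.516% ± 0.0173, which overlap, but TMM scaling would raise the GFP+ share relative to the GFP- share.

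Between 2i GFP+ and 2i GFP- cells, 1 hairpin of each of 5 PKA genes was enriched in the cells that kept UHRF1-GFP: PKIG 3270, PRKAR1A 2270, PRKAR2A 1827, PKIA 63 and PRKACA 58. They are against a catalytic subunit, a regulatory subunit of each type and inhibitor proteins, and their levels in GFP+ cells were between 4.40 and 62.9 times those in GFP- cells. No hairpin of PRKACB, PRKAR1B, PRKAR2B or PKIB was enriched. Another 12 PKA hairpins were depleted, and all 12 had no count in any GFP+ library. None of these 12 calls held when the letters A, B and C were fitted as a replicate block, where 1 of all 2600 tested hairpins was depleted. To be called, a hairpin needed an adjusted p under 0.05 (Benjamini-Hochberg, over all tested hairpins, from edgeR's quasi-likelihood test) together with a log2 fold change beyond 1 in either direction. SE stands for the standard error of such a fold change.

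Of the 39 PKA hairpins, 37 passed the filter on low counts and were tested, and 5 of these (13.5%) were enriched, against 8.58% of all 2600 tested hairpins. The 12 depleted hairpins are 32.4% of those tested, against 23.5% of all tested hairpins. As all 12 were at 0 in the GFP+ libraries, they passed the filter only through the GFP- libraries. Their count is therefore a description and supports no difference from the library. The p-values given below for single ones of them are descriptions too. The median log2 fold change of the PKA hairpins was -0.93, and that of all tested hairpins -0.88 (-1.61 with total count scaling). Whether the PKA shares differ from those of the library was not tested. PRKACB 476 and PRKAR1B 1755 were not tested. The study singled out PKA from these same libraries, so the counts are not independent evidence of a direction. Outside these libraries, the study also treated cells with a small-molecule PKA inhibitor and reported on Western blots that UHRF1 was retained in 2i. From marker genes it concluded that the treated cells failed to take on the expression profile of the naïve state. It described the effects on DNA methylation as variable, with most assayed sites keeping it. Without GFP+ replicate B, 8 PKA hairpins were enriched and 16 depleted, against 16.0% and 38.3% of all hairpins tested then. With total count scaling in place of TMM, the same 5 were enriched and 13 were depleted, while 124 of all tested hairpins were enriched and 719 depleted, in place of 223 and 610. Without any 1 of the GFP- libraries, hairpins at 0 in GFP+ cells failed the filter and 0 PKA hairpins were depleted, but all 12 were when the tested hairpins were held.

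PKIG encodes the inhibitor protein PKIγ, and its hairpin 3270 had the smallest p of all 2600 tested hairpins. It stood at 21437, 19106 and 20807 CPM in GFP+ libraries A, B and C. In GFP- libraries it stood at 311, 322 and 341 CPM. At Serum/LIF day 7 it was at 281, 239 and 266 CPM, and at day 0 at 267, 174 and 212 CPM. The GFP+ libraries lie far above the other 9, which lie close together, and in GFP+ cells it was the sixth most abundant hairpin of the table, where it had been number 1104 at day 0. The log2 fold change of GFP+ over GFP- was 6.03 (SE 0.116, edgeR quasi-likelihood adjusted p = 5.76e-06), from 20450 ± 1206 CPM (SD, n = 3) against 325 ± 15.5.

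The other 4 hairpins of PKIG went different ways. PKIG 3272 had no count in any GFP+ library and stood at 53.5, 142 and 71.6 CPM in GFP- libraries A, B and C. Those are 903 counts in all, which puts it at least 68.8-fold lower in GFP+ cells when a floor of 3 counts is set in each library, and it was depleted (adjusted p = 0.00766). Its level at Serum/LIF day 0 was 338, 225 and 191 CPM. PKIG 3268, 3269 and 3271 did not pass the test, and each split within the GFP+ group. PKIG 3268 was at 636, 0 and 661 CPM in GFP+ libraries A, B and C against 122, 133 and 233 in GFP- libraries. PKIG 3269 was at 551, 60.6 and 848 CPM against 439, 232 and 325. Both were enriched when replicate B was left out.

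PKIA encodes PKIα, the best characterised of the inhibitors, and had 3 hairpins. PKIA 63 stood at 2999, 1346 and 3183 CPM in GFP+ libraries and at 412, 200.3 and 206 CPM in GFP- libraries. At Serum/LIF day 7 it was at 149, 89.9 and 154 CPM, and at day 0 at 53.9, 104 and 230.2 CPM. Its GFP+ libraries lie above all others, with B the lowest of them. The log2 fold change over GFP- cells was 3.24 (SE 0.476, edgeR adjusted p = 0.00736), from 2509 ± 1012 against 273 ± 120 CPM (SD, n = 3). The call was lost when GFP- replicate B or C was left out, with adjusted p = 0.0589 and 0.0611. PKIA 62 and 64 were neither enriched nor depleted, with log2 fold changes of 0.27 and -0.23. PKIA 64 was high in GFP+ replicate B alone, at 7.7, 995 and 40.6 CPM in A, B and C, against 344, 662 and 323 in GFP- cells, and it was depleted without replicate B.

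PKIB encodes PKIβ, and none of its 4 hairpins was enriched. PKIB 3326 and 3328 were depleted. PKIB 3328 had no count in the GFP+ libraries and stood at 48.4, 21.6 and 29.7 CPM in the GFP- libraries, which is at least 25.7-fold lower (edgeR adjusted p = 0.00759). PKIB 3325 was at 243, 0 and 401 CPM in GFP+ libraries A, B and C against 50.1, 77.7 and 28.3 in GFP- libraries. Its log2 fold change of 2.05 had an SE of 1.87 and did not pass the test, and it was enriched without replicate B. PKIB 3324 overlapped between the groups.

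PRKACA, the catalytic subunit Cα, had 5 hairpins that were above 0 in every library, as were the 3 of PKIA, and none of them was depleted. PRKACA 58 stood at 3571, 3534 and 3645 CPM in GFP+ libraries, the closest agreement of the enriched PKA hairpins across the GFP+ group. In GFP- libraries it stood at 855, 782 and 806 CPM. At Serum/LIF day 7 it was at 1235, 1103 and 1145 CPM, and at day 0 at 765, 592 and 822 CPM. The GFP+ libraries lie above all others, and the day 7 libraries lie above the GFP- libraries. Its log2 fold change over GFP- cells was 2.19 (SE 0.171, edgeR adjusted p = 0.00148), from 3583 ± 56.5 against 814 ± 37.4 CPM (SD, n = 3).

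PRKACA 59 fell just short of the call. It stood at 1632, 1830.4 and 1772 CPM in GFP+ libraries against 927, 972 and 1060.1 in GFP- libraries, and at 679, 623 and 694 CPM at day 0. The groups do not overlap, and the log2 fold change over GFP- cells of 0.88 (SE 0.209) passed the p threshold with edgeR adjusted p = 0.0187 but not the fold limit. PRKACA 55 and 57 overlapped between the groups, with log2 fold changes of -0.53 and -0.19. PRKACA 56 was at 96.0, 406 and 63.6 CPM against 900.1, 1213 and 999.7, with a log2 fold change of -2.36 that did not pass the test (SE 0.805, adjusted p = 0.0716). It was called depleted by edgeR's exactTest and by DESeq2, so that within 1 gene the largest changes ran in opposite directions.

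PRKACB, the catalytic subunit Cβ, had 3 hairpins and no enriched one. PRKACB 478 had no count in the GFP+ libraries and stood at 34.0, 16.9 and 33.2 CPM in GFP- libraries, at least 21.7-fold lower (edgeR adjusted p = 0.00752). Like the other depleted PKA hairpins, it lost its call with the replicate block. Its call was also lost with all 12 libraries in 1 fit (adjusted p = 0.0565). It was also at 0 in 1 library of Serum/LIF day 0 and in 2 of day 7, so its presence varied outside the GFP+ group too. PRKACB 475 was at 108, 71.7 and 278 CPM in GFP+ libraries against 59.0, 126 and 78.2, which overlap. PRKACB 476 was at 0 in the GFP+ libraries, and 150 counts were read over the 3 GFP- libraries.

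PRKAR1A, the most widely expressed type I regulatory subunit, had 5 hairpins, of which 1 was enriched and 2 were depleted. PRKAR1A 2270 stood at 2006, 1239 and 1713 CPM in GFP+ libraries and at 106, 51.7 and 130 CPM in GFP- libraries. At Serum/LIF day 7 it was at 94.0, 62.2 and 75.5 CPM, and at day 0 at 203, 96.4 and 67.8 CPM. The GFP+ libraries lie above all others, and the other groups overlap each other. Its log2 fold change over GFP- cells was 4.17 (SE 0.456, edgeR adjusted p = 0.00540), from 1652 ± 387 against 95.6 ± 39.9 CPM (SD, n = 3). PRKAR1A 2271, in contrast, had no GFP+ count and stood at 43.2, 53.4 and 61.1 CPM in GFP- libraries, at least 40.6-fold lower (adjusted p = 0.00736). PRKAR1A 2272 was depleted too, from 169 counts over the GFP- libraries. PRKAR1A 2273 and 2274 did not pass the test, with log2 fold changes of -0.93 and 0.17.

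PRKAR1B, the type I subunit best known from neurons, had 4 hairpins, and none was higher in GFP+ cells. PRKAR1B 1757 had the largest bound of the depleted PKA hairpins: it stood at 258, 244 and 115 CPM in GFP- libraries, 2105 counts in all, and at 0 in GFP+ libraries, at least 159-fold lower (edgeR adjusted p = 0.00736). PRKAR1B 1756 was depleted likewise. PRKAR1B 1754 was at 143, 34.6 and 301 CPM in GFP+ libraries against 317, 318 and 368 in GFP- libraries, with a log2 fold change of -1.05 that did not pass the test. PRKAR1B 1755 had 37 counts over the GFP- libraries and none in the GFP+ libraries.

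PRKAR2A, a type II regulatory subunit found in most tissues, also had hairpins called in both directions. PRKAR2A 1827 stood at 2631, 6609 and 2859 CPM in GFP+ libraries and at 386, 388 and 361 CPM in GFP- libraries. At Serum/LIF day 7 it was at 352, 335 and 327 CPM, and at day 0 at 412, 499.6 and 262 CPM. The GFP+ libraries lie above all others, and here replicate B was the highest of them. The log2 fold change over GFP- cells was 3.50 (SE 0.463, edgeR adjusted p = 0.00736), from 4033 ± 2234 against 378 ± 15.0 CPM (SD, n = 3), and it was 2.90 without GFP+ replicate B. PRKAR2A 1826 stood at 1034, 1299.6 and 1004 CPM against 647, 906 and 648, but its log2 fold change of 0.66 did not pass the test. PRKAR2A 1824 and 1828 were depleted. PRKAR2A 1828 was the thinnest of the depleted hairpins, at 18.1, 8.6 and 13.3 CPM in GFP- libraries and 0 in GFP+ libraries, at least 10.3-fold lower from 132 counts (adjusted p = 0.00791). PRKAR2A 1825 was at 70.8, 145 and 0 CPM in GFP+ libraries A, B and C against 253, 183 and 223 in GFP- libraries, and did not pass the test.

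PRKAR2B, the type II regulatory subunit prominent in brain and fat, had a negative log2 fold change for each of its 5 hairpins. PRKAR2B 2262 stood at 55.6, 34.3 and 71.9 CPM in GFP- libraries and at 0 in GFP+ libraries, at least 41.7-fold lower (edgeR adjusted p = 0.00736). PRKAR2B 2260 was depleted from a higher level, at least 148-fold lower. The other 3 did not pass the test. PRKAR2B 2264 was at 108, 0 and 16.2 CPM in GFP+ libraries against 493, 565 and 476, a log2 fold change of -3.59 with an SE of 1.73. PRKAR2B 2261 had a log2 fold change of -2.90, and PRKAR2B 2263, the most abundant PKA hairpin of GFP- cells, one of -1.04. PRKAR2B 2261 and 2264 were depleted without GFP+ replicate B.

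The 3 types of outcome differed in how abundant the hairpins were in GFP- cells. The 5 enriched hairpins had GFP- levels between 95.6 and 814 CPM with a median of 325. The 12 depleted hairpins lay between 13.3 and 205 CPM with a median of 47.7, and the 20 hairpins called neither way had a median of 435 CPM. Over all tested hairpins the medians were 395, 71.0 and 191 CPM. Depleted PKA hairpins were thus among the scarcer ones, as depleted hairpins were in the whole library, and the part of abundance in these calls was not tested.

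The GFP+ cells were also compared with the unsorted cells kept in Serum/LIF for the same 7 days. These comparisons use the same GFP+ libraries, so they are not independent of the comparison with GFP- cells, and the values are given side by side. Against Serum/LIF day 7, 5 of 38 tested PKA hairpins were enriched (9.81% of all tested hairpins were) and 13 were depleted (31.9% of all). All 13 were at 0 in the GFP+ libraries and passed the filter only through the day 7 libraries, so their count is a description. None of the 13 was depleted with the replicate block. The log2 fold changes were 6.35 for PKIG 3270, 4.48 for PRKAR1A 2270, 4.31 for PKIA 63, 3.66 for PRKAR2A 1827 and 1.69 for PRKACA 58 (edgeR adjusted p between 1.54e-05 and 0.00311). Their counterparts against GFP- cells were 6.03, 4.17, 3.24, 3.50 and 2.19. With total count scaling PRKACA 58 had a log2 fold change of 0.91 and was not called, and over all tested hairpins 165 were enriched and 1068 depleted, in place of 285 and 926. The median over the PKA hairpins was -0.89, against -1.42 over all tested hairpins. Without GFP+ replicate B, 8 PKA hairpins were enriched and 19 depleted, against 16.9% and 47.8% of all hairpins tested then, and PRKAR2A 1827 had a log2 fold change of 3.03. Without any 1 of the day 7 libraries 0 were depleted, since hairpins at 0 in GFP+ cells then failed the filter.

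Against the cells at the start of the screen, Serum/LIF day 0, 7 of 35 tested PKA hairpins were enriched (10.2% of all tested hairpins were) and 10 were depleted (25.0% of all). All 10 were at 0 in the GFP+ libraries and passed the filter only through the day 0 libraries, so their count is a description. None of the 10 was depleted with the replicate block. Beside the 5 named so far, at log2 fold changes of 6.55 for PKIG 3270, 4.28 for PKIA 63, 3.73 for PRKAR1A 2270, 3.39 for PRKAR2A 1827 and 2.31 for PRKACA 58, the enriched hairpins were PRKACA 59 and PRKAR2A 1826. PRKACA 59 had a log2 fold change of 1.40 (SE 0.244, edgeR adjusted p = 0.00629). PRKAR2A 1826 rose from 447, 516 and 441 CPM at day 0 to the GFP+ levels given for it, a log2 fold change of 1.26 (SE 0.312, adjusted p = 0.0200). Both were also above their day 0 levels at Serum/LIF day 7, without passing the fold limit: PRKAR2A 1826 stood at 735, 713 and 851 CPM and PRKACA 59 at 897, 1125 and 1019 CPM. Both calls were lost with total count scaling, at log2 fold changes of 0.55 and 0.41. In that setting 5 PKA hairpins were enriched and 11 depleted, against 5.24% and 30.7% of all tested hairpins. Both calls were also lost with the replicate block and without any 1 of the day 0 libraries. That of PRKAR2A 1826 was lost with RLE scaling too (log2 fold change 1.05, adjusted p = 0.0535). The median over the PKA hairpins was -0.29, against -1.23 over all tested hairpins. Without GFP+ replicate B, 11 PKA hairpins were enriched and 13 depleted, against 17.0% and 38.7% of all hairpins tested then, and PRKAR2A 1827 had a log2 fold change of 2.82. Without any 1 of the day 0 libraries 0 were depleted. PKIA 63 lost its call here without day 0 replicate B (adjusted p = 0.0550) and had a log2 fold change of 4.97 without replicate C, and PRKAR1A 2270 one of 4.35 without replicate A.

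Few PKA hairpins were called between the groups other than GFP+. Between Serum/LIF day 7 and day 0 all 39 were tested and none was called by edgeR's quasi-likelihood test, where 3.43% of all tested hairpins were enriched and 4.00% depleted. At an unadjusted p under 0.05 there were 12 PKA hairpins, and 29.0% of all. The alternative exactTest called 0 enriched and 1 depleted (4.62% and 5.94% of all), and DESeq2 called 3 enriched and 2 depleted (5.24% and 10.4% of all). The median log2 fold change of the PKA hairpins was 0.16, against -0.02 over all tested hairpins.

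Between 2i GFP- cells and Serum/LIF day 7, 1 of 39 tested PKA hairpins was depleted (4.83% of all) and 0 were enriched (4.16% of all). At an unadjusted p under 0.05 there were 10 PKA hairpins, and 29.4% of all. Both exactTest and DESeq2 called 1 enriched and 2 depleted (4.93% and 6.71% of all by exactTest, 5.94% and 8.07% by DESeq2). The depleted hairpin was PRKAR1B 1754, at 317, 318 and 368 CPM in GFP- libraries A, B and C against 979, 779 and 782 at day 7. The groups do not overlap, and the log2 fold change was -1.34 (SE 0.148, edgeR adjusted p = 0.000628), from 334 ± 29.1 against 847 ± 115 CPM (SD, n = 3). Its levels at day 0 were 573, 547 and 494 CPM, between those of GFP- cells and day 7.

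Between 2i GFP- cells and Serum/LIF day 0, 3 of 38 tested PKA hairpins were enriched (5.47% of all) and 0 were depleted (5.37% of all). At an unadjusted p under 0.05 there were 14 PKA hairpins, and 27.5% of all. Here exactTest called 3 enriched and 1 depleted (6.36% and 7.22% of all), and DESeq2 called 5 enriched and 4 depleted (7.49% and 10.7% of all). PRKAR2B 2263 rose from 1119, 1242 and 1079 CPM at day 0 to 2467, 2434 and 2398 CPM in the GFP- libraries, with a log2 fold change of 1.08 (SE 0.112, edgeR adjusted p = 0.000820). PKIG 3271 rose from 501, 558 and 437 CPM to 1319.5, 1397 and 1169 CPM, a log2 fold change of 1.37 (SE 0.155, adjusted p = 0.00105). PRKAR1B 1757, which was at 0 in GFP+ cells, rose from 70.1, 77.9 and 34.4 CPM to the GFP- levels given for it, a log2 fold change of 1.75 (SE 0.501, adjusted p = 0.0483). None of these groups overlap. With total count scaling 1 PKA hairpin was enriched and 1 depleted, against 3.90% and 6.71% of all tested hairpins. The enriched one was PKIG 3271, while PRKAR2B 2263 fell short of the fold limit at a log2 fold change of 0.94. PRKAR1B 1757 lost its call there, with the replicate block and with RLE scaling (log2 fold change 1.72, adjusted p = 0.0529). It also lost it without any 1 of the day 0 libraries and without GFP- replicate A or B (adjusted p between 0.0672 and 0.181).

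For the rest of the pathway, a list of 24 genes with 113 hairpins was counted in GFP+ against GFP- cells, of which 87 hairpins were tested, 2 were enriched (2.30%, against 8.58% of all tested hairpins) and 25 depleted (28.7%, against 23.5%). The median log2 fold change was -1.76, against -0.88 over all tested hairpins. Most of the depleted hairpins had no count in any GFP+ library and passed the filter only through the GFP- libraries. Their count and the median are therefore descriptions, and whether the list differs from the library was not tested. With the replicate block 1 of all 2600 tested hairpins was depleted, so at most 1 of the 25 depleted calls held there. Anchoring proteins, which tether PKA through its regulatory subunits, had 0 enriched and 6 depleted of 35 tested hairpins. Kinases and bifunctional metabolic enzymes known as PKA substrates had 2 and 13 of 35, the subunits of phosphorylase kinase, a classical PKA substrate in glycogen breakdown, 0 and 4 of 13, and PRKX, a kinase close to the catalytic subunits in sequence, 0 and 2 of 4. Leaving out GFP+ replicate B was an alternative chosen here after seeing the data. Without it, 9 of 87 tested pathway hairpins were enriched and 39 depleted, against 16.0% and 38.3% of all hairpins tested then. By group the pathway counts were 2 and 12 of 35 for anchoring proteins, 5 and 19 of 35 for the substrates, 2 and 6 of 13 for phosphorylase kinase and 0 and 2 of 4 for PRKX.

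The pathway hairpins with the smallest p were all depleted, and at most 1 of these calls held with the replicate block. STK11 1408, against the kinase LKB1, stood at 177 ± 53.1 (SD, n = 3) in the GFP+ libraries and 1245 ± 285 CPM in the GFP- libraries (log2 fold change -2.76, edgeR adjusted p = 0.00736). PHKG1 1458, against a catalytic subunit of phosphorylase kinase, CSK 1173, against the kinase that restrains Src, and GSK3B 129 had no GFP+ counts and were at least 92.4-fold, 169.6-fold and 122-fold lower. The 2 enriched hairpins, named after their values were seen, were against genes of which another hairpin was depleted. GSK3B 128 was at 5261 ± 2691 CPM in GFP+ cells against 1429.5 ± 65.8 in GFP- cells (log2 fold change 1.96, adjusted p = 0.0110). STK11 1410 was at 1491 ± 782 against 352 ± 106 CPM (log2 fold change 2.12, adjusted p = 0.0228).

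The hairpins whose level followed PKIG 3270 most closely over the 12 libraries, by Pearson correlation of log2 CPM, were PDK3 1255 (r = 0.998), SEPHS2 2951 (r = 0.995) and SEPHS2 2953 (r = 0.995). PDK3 encodes a pyruvate dehydrogenase kinase and SEPHS2 a selenophosphate synthetase. The correlation is a description, since the points share the split between the 3 GFP+ libraries and the other 9. Mean levels in GFP+ cells were 21655 CPM for PDK3 1255, 681 for SEPHS2 2951 and 3673 for SEPHS2 2953, and in GFP- cells 818, 9.89 and 59.9 CPM, beside 20450 and 325 for PKIG 3270.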

How the data were processed

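The deposited table holds raw counts of reads per hairpin in 12 libraries, as whole numbers with no normalization. To make it, the authors amplified integrated hairpins from genomic DNA by PCR, sequenced them, aligned the reads with Bowtie2 and counted them with a Python script. Tool versions and the reference of hairpins they were aligned to are not stated in the sources read here, and the titles call the libraries combined without explaining the word. Every count column was used. Reads of PCR products carry no molecular identifiers and can be copies of each other, so a floor covers counting error only. A legend calls the libraries biological replicates, but no source speaks of several infections, and the p-values reflect only how far these libraries spread, which may be partly technical.

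Each of 6 comparisons was fitted alone on its 6 libraries over the whole table with edgeR 4.0.16 in R 4.3.3 (glmQLFit and glmQLFTest, TMM scaling, a filter of 0.5 CPM or more in 3 or more libraries), with p-values adjusted by Benjamini-Hochberg over all tested hairpins. The standard error is the log2 fold change divided by the square root of F. The methods name edgeR's exactTest, which was an alternative, as were DESeq2 1.42.0, other scalings and filters, a replicate block on the letters A, B and C, and leaving out each library. Where all 3 GFP+ libraries were at 0, the bound sets the other group's mean CPM against that of 3 counts in each GFP+ library. The scripts were tested on simulated data.

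Levels in every library are given for each PKA hairpin enriched in GFP+ cells over any other group, for the depleted hairpin of each gene with the smallest p, for called hairpins of the other comparisons, and for some uncalled hairpins singled out after their values were seen. Up to 4 pathway hairpins and 3 closest neighbours were named by p and by correlation. The members, lists and rules were chosen with earlier results of these data known. Hairpin sequences and genome positions were not used here.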

Additional observations from a re-analysis of the deposited data

How the results depend on the processing

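Direction was followed for each PKA hairpin called enriched in GFP+ cells and for each called between the other groups. Against GFP- cells it was also followed for the depleted hairpin of each gene with the smallest p. All of these kept their direction under every alternative that gave a value, and the direction of other PKA hairpins was not followed. In GFP+ against GFP- cells the 5 enriched hairpins stayed called with each scaling, filter and test, and 4 to 8 hairpins were enriched when 1 library was left out (8 without GFP+ replicate B). The depleted count was 11 to 14 with other scalings, filters and tests, 16 without GFP+ replicate B, and 0 without any 1 GFP- library, because hairpins at 0 in GFP+ cells then fail the filter. With the tested hairpins held, it was 12 to 16, and 5 to 8 were enriched. No source says whether the letters pair the libraries. The 2i cells were grown in triplicate before the sort, so GFP+ and GFP- libraries of 1 letter may share a culture. Correlations of same-letter deviations ran from -0.036 to 0.085 over 18 pairs of libraries, and those of other letters from -0.084 to 0.067. For the 3 same-letter pairs of GFP+ and GFP- libraries they ran from 0.009 to 0.085, which cannot settle the question. With the replicate block, 5 PKA hairpins were enriched and 0 depleted in this comparison (66 and 1 of all), and 0 were depleted against either Serum/LIF group, with 5 enriched in each. The cause was not tested. Against Serum/LIF day 7, leaving out a library gave 5 to 8 enriched and 0 to 19 depleted, and against day 0 it gave 4 to 11 and 0 to 13. For Serum/LIF day 7 against day 0, exactTest gave 1 depleted, DESeq2 3 enriched and 2 depleted, and leaving out a library 0 to 2 enriched and 0 to 1 depleted (calls without day 0 replicate B or C). For GFP- against Serum/LIF day 7, exactTest and DESeq2 gave 1 enriched and 2 depleted each, the replicate block 2 depleted, and leaving out a library 0 to 1 enriched and 1 to 3 depleted (1 and 3 without GFP- replicate B, 1 and 1 without day 7 replicate C). For GFP- against day 0, total count scaling gave 1 and 1, and RLE scaling and the replicate block gave 2 enriched each. There exactTest gave 3 enriched and 1 depleted, and DESeq2 5 enriched and 4 depleted. Leaving out a library gave 2 to 3 enriched and 0 to 1 depleted (1 without GFP- replicate B). With total count scaling 1 pathway hairpin was enriched (4.77% of all tested hairpins were). Without GFP+ replicate B 9 were enriched and 39 depleted (16.0% and 38.3% of all). At a limit of 10 counts, 97.4% of PKA hairpins were detected in GFP- cells. The scarcest depleted PKA hairpin had 132 GFP- counts.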
